A study of Arabidopsis thaliana with 2 samples.

Results

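GILT (AT4G12960), the gene for a gamma-interferon-responsive lysosomal thiol reductase, had the most allele-specific matches among the 1994 loci of the study's maternal list that could be placed in the seed libraries described here. Loci outside that list were not ranked. It was represented by 15 of the 147349 SNP windows with at least 1 match, those that lie inside chr4:7583249-7584675 of the TAIR8 build. The interval was the given one, and its edges are the start of the first and the end of the last of these windows. The gene was chosen because its summed matches are deepest and nearly all maternal, so its depth and maternal share are given as a description and were not tested. Exon and intron positions were not analysed here.

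RNA was sequenced from whole F1 seeds collected at 4 days after pollination (DAP) from both directions of a cross between 2 accessions of Arabidopsis thaliana, Col-0 and Bur-0. With the mother named first, these are Col-0×Bur-0, here called seeds of Col-0 mothers, and Bur-0×Col-0, here called seeds of Bur-0 mothers. Mothers were emasculated and pollinated by hand, seeds of many siliques were pooled per sample, and all plants were of otherwise unaltered genotype as far as the labels say. Each cross has 1 library, sequenced on 4 lanes, so lanes are repeats of the sequencing and no spread between plants can be given. A whole seed holds the maternal seed coat besides the embryo and the endosperm, and in such a mixture a lower number of expressing cells and less RNA per cell cannot be told apart.

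GILT enzymes reduce disulphide bonds between cysteines. The mammalian enzyme works in the acidic lysosome, where it opens disulphide-bonded proteins that are to be degraded and presented to the immune system. Plants lack that immune presentation but carry a small family of GILT genes. In a seed, a transcript made in the seed coat carries only maternal alleles, whereas a biallelic transcript of the endosperm carries 2 maternal genomes to 1 paternal genome (2m∶1p).

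A match is 1 read of 36 nt placed on a window of 71 nt that has a Bur-0 SNP at its centre and that was made once with the Col-0 and once with the Bur-0 base. The unit of all values below is the number of deposited matches. The library of Bur-0 mothers had 8576779 matches from 129251366 reads searched (1733892 to 2313110 matches per lane). The library of Col-0 mothers had 6773239 matches from 121894863 reads (1295748 to 1830948 per lane). The study states the same numbers of matches but other read totals, clearly lower for Bur-0 mothers and slightly higher for Col-0 mothers. This difference was not resolved here. Of 12 seed coat genes listed as markers, 10 could be placed in the windows, and together they took 4.41% of the matches with Bur-0 mothers and 3.54% with Col-0 mothers. Both values count all matches, including reads over several SNPs, and cannot be compared between the crosses for the reason given below. Of 8 endosperm genes 1 could be placed, PHE1, a type I MADS-box gene, with 56 and 83 matches. Loci were placed only from the study's lists of parentally biased genes, as far as these were read here. FWA, another of the 8 endosperm genes, was not placed, although the study names it among its maternally biased genes. The endosperm list thus rests on PHE1 alone, and its depth cannot be set against that of the seed coat list. The share of each tissue was not measured.

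In seeds of Bur-0 mothers GILT had 410527 maternal (Bur-0) and 113 paternal (Col-0) matches. In seeds of Col-0 mothers it had 207591 maternal (Col-0) and 464 paternal (Bur-0) matches. The maternal share was thus 99.97% and 99.78%. GILT took 4.79% of all matches of the library of Bur-0 mothers (95% Wilson interval 4.77 to 4.80%) and 3.07% of the library of Col-0 mothers (3.06 to 3.08%). Intervals here and below cover counting error only, because reads were amplified by PCR and are not independent molecules. GILT ranked first in both crosses by summed matches among the 1994 maternally biased loci that could be placed. It did not rank first per window. It averaged 27376 matches per window with Bur-0 mothers, second to LTP6, a lipid transfer protein gene with 64078 matches per window. It averaged 13870 per window with Col-0 mothers, behind LTP6, the thionin gene THI2.1 and AT4G15750.

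The 15 windows differed in depth by more than 4 orders of magnitude, and a few of them held nearly all matches. Windows are named here by the distance in nt of their start from the start of the first. The +417 window (chr4:7583666-7583736) was the deepest of the whole series with Col-0 mothers and the second deepest with Bur-0 mothers. It had 144168 Col-0 and 34 Bur-0 matches with Col-0 mothers and 123504 Bur-0 and 70 Col-0 matches with Bur-0 mothers. These are 69.3% of the GILT matches with Col-0 mothers, but only 30.1% with Bur-0 mothers. Reads covered it at all 72 possible combinations of start and orientation in both crosses.

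**Figure D1:**
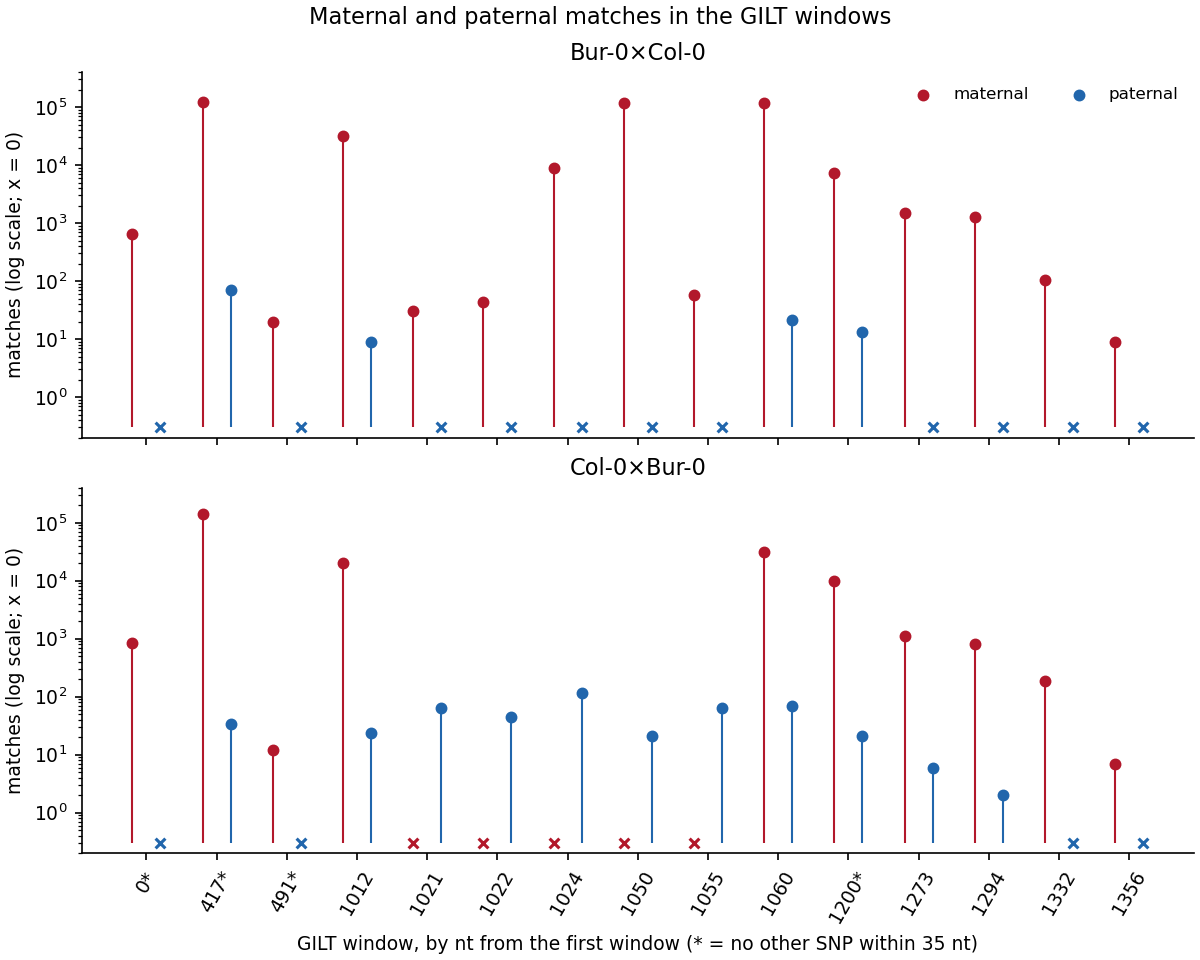
Maternal (red) and paternal (blue) matches in each of the 15 GILT windows on a log scale, with Bur-0 mothers (labelled Bur-0×Col-0) above and Col-0 mothers below, in order of the distance in nt from the start of the first window; a cross stands for 0 matches and an asterisk for a window with no other SNP within 35 nt. Maternal matches outnumber paternal ones wherever both occur, and 5 neighbouring windows between +1021 and +1055 have paternal but no maternal matches with Col-0 mothers.

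Windows of the same order of depth were found in seeds of Bur-0 mothers alone or mostly there. The +1050 window (chr4:7584299-7584369) had 120278 Bur-0 matches with Bur-0 mothers, the third deepest window of that library, and with Col-0 mothers no Col-0 match and 21 Bur-0 matches. The +1060 window (chr4:7584309-7584379) had 115813 maternal and 21 paternal matches with Bur-0 mothers against 30768 maternal and 68 paternal matches with Col-0 mothers. The +1012 window (chr4:7584261-7584331) followed with 31215 maternal and 9 paternal against 19855 maternal and 24 paternal matches. Toward the end of the interval, the +1200 window (chr4:7584449-7584519) had 7257 maternal and 13 paternal against 9850 maternal and 21 paternal matches.

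The remaining windows were shallower. The +1024 window had 8806 Bur-0 matches with Bur-0 mothers, and with Col-0 mothers only 115 matches, all of them Bur-0. Maternal matches numbered 1495 with Bur-0 mothers and 1094 with Col-0 mothers in the +1273 window, 1253 and 816 in the +1294 window, and 641 and 832 in the first window. They numbered 104 and 189 in the +1332 window, 20 and 12 in the +491 window and 9 and 7 in the +1356 window. The +1021, +1022 and +1055 windows had 31, 44 and 57 Bur-0 matches with Bur-0 mothers and 64, 44 and 65 Bur-0 matches with Col-0 mothers, with no Col-0 match in either cross. The +417 window lies only 74 nt from the +491 window and had more than 1000 times its matches. The next window beyond the right edge, which overlaps the interval, had 2 and 7 matches, and the nearest one on the left, 19440 nt away, had 1 in each cross. Including the overlapping window left both shares of the library as given.

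Reads did not fall evenly within a window. In the +1060 window 1 start in reverse orientation held 17719 matches with Col-0 mothers, 57.5% of the window, and the same start held 20110 matches with Bur-0 mothers, 17.4% of the window. In the +417 window the most frequent start held 11.1% and 12.2% of the matches. Reverse orientation made up 58.7% and 60.9% of the matches there, and 97.3% and 97.8% in the +1294 window.

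The 5 windows without a Col-0 match belong to a group in which SNPs lie close together. Between +1012 and +1060 there are 7 SNPs, in a stretch little longer than a read of 36 nt. Of the 410527 Bur-0 matches of GILT with Bur-0 mothers, 219516 or 53.5% (53.3 to 53.6%) covered another SNP of the files. Of the 207591 Col-0 matches with Col-0 mothers, 0 did, a value fixed by the making of the windows and not an estimated rate. The difference was not particular to GILT. Over all windows, 25.2% of the Bur-0 matches with Bur-0 mothers covered another SNP, against 0 of 6309591 Col-0 matches with Col-0 mothers and 0 of 394625 Col-0 matches with Bur-0 mothers. This follows from how the windows were made. Both versions of a window hold the Col-0 sequence except for the base at the centre, so Col-0 windows of neighbouring SNPs are identical where they overlap, and only matches unique within the set of windows were kept. A Bur-0 window differs from its neighbours at its centre.

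Over all windows with at least 20 matches, a Col-0 match was lacking in 4672 of 25763 windows with another SNP within 35 nt (18.1%), and in 638 of 36406 windows without one (1.75%). In GILT it was lacking in 5 of 10 and in 0 of 4 such windows. The 5 windows held 129216 or 31.5% of the GILT matches with Bur-0 mothers, in which no paternal match could be found, and 309 matches with Col-0 mothers, all counted as paternal. The matches of GILT that can be compared between both directions of the cross are thus those over 1 SNP only, and the 4 windows with no other SNP within 35 nt (first, +417, +491 and +1200).

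With all matches, the share of GILT in the library was 1.56 times as high with Bur-0 mothers as with Col-0 mothers (95% interval 1.55 to 1.57). With matches over 1 SNP only, in the gene and in the library, it was 2.93% (191124 of 6516569) and 3.10% (207669 of 6695434). The ratio was then 0.946 (0.940 to 0.951). With windows that have no other SNP within 35 nt, in the gene and in the library, the shares were 2.68% and 3.09% and the ratio 0.869 (0.863 to 0.875). The higher share with the Bur-0 mother therefore did not hold once reads over several SNPs were left out. For the gene total over 1 SNP, the opposite direction depended on the +417 window. Without it the ratio over 1 SNP was 1.09 (1.08 to 1.11), with shares of 1.04% and 0.948%. With all other matches kept it was 3.55. By maternal matches over 1 SNP, the first and +1200 windows, also with no other SNP within 35 nt, had ratios below 1 (0.792 and 0.757). The +491 window had 1.71 (0.837 to 3.50), from few matches. Among windows with at least 100 matches, only the +1012 and +1060 windows lay above 1 (1.36 and 1.06). Both have another SNP within 35 nt. No test of a difference in level between the mothers is possible with 1 library per cross.

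**Figure D2:**
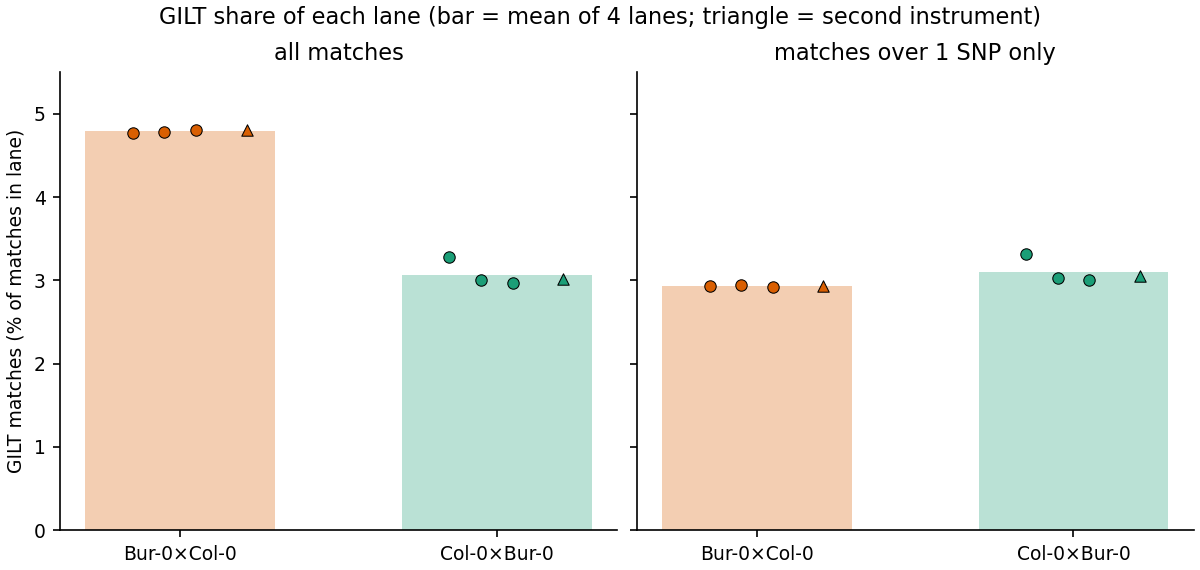
GILT matches as a percentage of the matches of each lane, with all matches (left) and with matches over 1 SNP only (right). Points are lanes, triangles the lane of the second instrument and bars the mean of 4 lanes; the gap between 4.77 to 4.81% and 2.97 to 3.28% on the left is smaller and turned on the right, where lanes lie at 2.92 to 2.94% and 3.002 to 3.31%.

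Single windows did not give 1 ratio either. Relative to the matches over 1 SNP in each library, the ratio of maternal matches over 1 SNP was 0.880 (0.874 to 0.887) in the +417 window, 0.757 (0.734 to 0.780) in the +1200 window and 0.792 (0.714 to 0.877) in the first window. It was 1.36 (1.34 to 1.39) in the +1012 window and 1.06 (1.05 to 1.08) in the +1060 window. It lay between 0.565 and 0.671 in the +1273, +1294 and +1332 windows. The windows of 1 transcript thus spread from 0.565 to 1.36 among those with at least 100 matches, a wider range than that between the gene totals of both crosses.

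The lanes of a library were close to each other with Bur-0 mothers, with GILT at 4.77, 4.78, 4.80 and 4.81% of all matches. With Col-0 mothers lane 4 stood apart with 3.28%, against 2.999, 2.97 and 3.02% in the others. Lane 4 differed from window to window. The +1060 window took 0.620% of its matches, against 0.392 to 0.4004% in the other lanes of the cross, and the +1200 window 0.191% against 0.119 to 0.136%. The +1012 window took 0.244% against 0.300 to 0.333%, and the +417 window 2.16% against 2.10 to 2.13%. Without lane 4 the GILT share with Col-0 mothers was 2.99%. By the read names, a second instrument ran 1 lane of each cross. The ratio of the library shares was 1.55 and 1.59 on the first and second instrument with all matches, and 0.942 and 0.962 with matches over 1 SNP only.

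The paternal matches of GILT were few, and their share depended on the same windows. With all matches the paternal share was 0.0275% (113 of 410640, 0.0229 to 0.0331%) with Bur-0 mothers and 0.223% (464 of 208055, 0.204 to 0.244%) with Col-0 mothers. Of the 464 paternal Bur-0 matches, 309 (66.6%) lay in the 5 windows without a Col-0 match, and 386 (83.2%) covered another SNP. In the 10 windows matched by both accessions the paternal share was 0.0402% (0.0334 to 0.0483%) and 0.0746% (155 of 207746, 0.0638 to 0.0873%). With matches over 1 SNP only it was 0.0591% (113 of 191124, 0.0492 to 0.0711%) with Bur-0 mothers and 0.0376% (78 of 207669, 0.0301 to 0.0469%) with Col-0 mothers. The order of both crosses was then the opposite of that with all matches, and this too rests on the +417 window. Without it the shares over 1 SNP were 0.0637% (43 of 67550, 0.0473 to 0.0857%) and 0.0693% (44 of 63467, 0.0517 to 0.0930%), with intervals that overlap. The number of mismatches is not given for a match, and how many of the paternal matches come from the paternal allele was not tested.

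**Figure D3:**
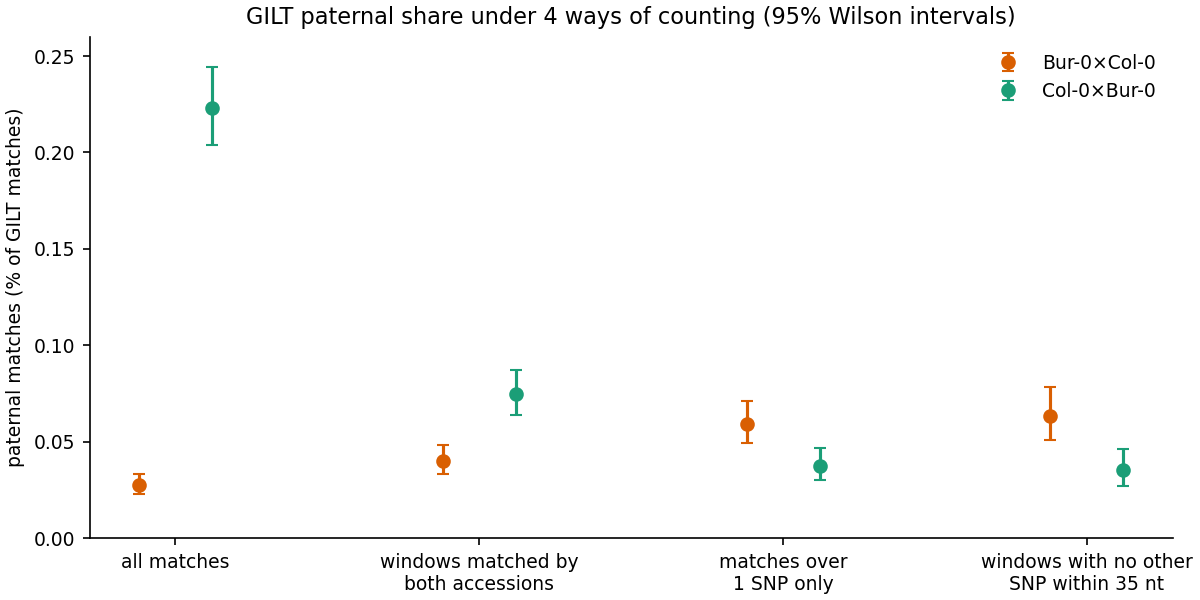
Paternal matches as a percentage of the GILT matches with Bur-0 mothers (orange) and Col-0 mothers (green) under 4 ways of counting, with 95% Wilson intervals that cover counting error only. The share with Col-0 mothers is higher with all matches (0.223 against 0.0275%) and lower with matches over 1 SNP only (0.0376 against 0.0591%).

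The test of the study, a binomial test against 2m∶1p in both crosses, called 10 of the 15 GILT windows maternally biased, beside 32.1% of all 147349 windows. The gene was chosen by this contrast, so nothing is read from the count. The 5 windows that were not called are those without a Col-0 match. Whether the paternal share of a window differed between both libraries was asked with a two-sided Fisher's exact test, which compares 2 libraries and not the crosses as conditions, since there is no replicate. With all matches, 8 of 13 tested GILT windows differed after Benjamini-Hochberg adjustment over all windows that had 20 or more matches per cross, beside 11.1% of the 34959 windows tested. The 5 windows without a Col-0 match were among the 8. Over 1 SNP only, 1 of 8 GILT windows differed, a share near the 8.24% of 33291 windows over all.

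The window that still differed was the +417 window, which has no other SNP within 35 nt. Its paternal share was 0.0566% (70 of 123574, 0.0448 to 0.0716%) with Bur-0 mothers and 0.0236% (34 of 144202, 0.0169 to 0.0329%) with Col-0 mothers (Fisher's exact test, adjusted p = 0.000299). The paternal share ranged over lanes from 0.0359 to 0.0774% with Bur-0 mothers and from 0.0130 to 0.0436% with Col-0 mothers, so that the ranges overlap. The +1060 window had 21 of 31889 paternal matches over 1 SNP with Bur-0 mothers and 9 of 30777 with Col-0 mothers, which did not pass after adjustment (Fisher's exact test, adjusted p = 0.353). In the +1200 window the paternal share was 0.179% (0.105 to 0.306%) and 0.213% (0.139 to 0.325%), and the intervals overlap. With matches over 1 SNP, the +1273 window had 0 of 700 paternal matches with Bur-0 mothers and 6 of 1100 with Col-0 mothers. With all matches it had 0 of 1495 with Bur-0 mothers, which allows a share of up to 0.201%. Of these 1495, 795 covered another SNP, where no Col-0 match could be found, so that limit is too low. The first window had 0 of 641 and 0 of 832, which allows up to 0.468% and 0.361%.

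Over the lanes of Bur-0 mothers there were 36, 25, 23 and 29 paternal GILT matches, and over those of Col-0 mothers there were 156, 132, 125 and 51. The lane of the second instrument, the last of each cross, had the lowest paternal share with Col-0 mothers, 0.130% (0.0992 to 0.171%) against 0.231 to 0.260% in the other lanes. Of the 51 paternal matches in that lane, 30 lay in the windows without a Col-0 match. With matches over 1 SNP only, the lanes of Col-0 mothers had 27, 17, 19 and 15 paternal matches, or 0.0311 to 0.0451%, and the lane of the second instrument (0.0384%) was within the range of the others. The lanes of Bur-0 mothers had 0.0448 to 0.0750%. On each instrument the share over 1 SNP was higher with Bur-0 mothers, at 0.0551% (0.0445 to 0.0682%) against 0.0374% (0.0292 to 0.0478%) on the first and 0.0750% (0.0522 to 0.108%) against 0.0384% (0.0233 to 0.0633%) on the second. The intervals overlap on both instruments.

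The position of the SNP in the read differed between paternal and maternal matches with Bur-0 mothers. With Col-0 mothers the direction depended on the windows used, and some intervals of the paternal matches include the maternal value. In all GILT windows with Col-0 mothers, the SNP was read at sequencing cycle 1 in 5.39% (3.68 to 7.83%) of the paternal and 7.32% of the maternal matches, where the interval includes the maternal value. Within the first 12 cycles it was read in 38.1% (33.8 to 42.6%) and 44.1%. Of these 464 paternal matches, 309 lay in the 5 windows without a Col-0 match. Those windows hold no maternal match with Col-0 mothers, so the values of all GILT windows compare different windows. With Bur-0 mothers all paternal matches lay in windows matched by both accessions, and in all GILT windows cycle 1 took 21.2% of paternal against 1.47% of maternal matches. The direction for Col-0 mothers turned in the windows matched by both accessions, a choice made after seeing the data. In the windows matched by both accessions, the SNP base was read at sequencing cycle 1 in 24 of 113 paternal matches of Bur-0 mothers, or 21.2% (14.7 to 29.7%), against 2.06% of the maternal matches. With Col-0 mothers it was 21 of 155, or 13.5% (9.04 to 19.8%), against 7.32%. Within the first 12 cycles lay 54.9% (45.7 to 63.7%) of the paternal and 36.0% of the maternal matches with Bur-0 mothers, and 55.5% (47.6 to 63.1%) and 44.1% with Col-0 mothers. In the +417 window the SNP was read at cycle 1 in 19 of 70 paternal matches with Bur-0 mothers (27.1%, 18.1 to 38.5%) against 2.39% of the maternal ones, and in 7 of 34 with Col-0 mothers (20.6%, 10.3 to 36.8%) against 8.68%. The paternal share at that 1 start was 0.640% (0.410 to 0.997%) with Bur-0 mothers, with 19 paternal and 2951 maternal matches, and 0.0559% (0.0271 to 0.115%) with Col-0 mothers, with 7 and 12512. Paternal matches occurred at 25 of the 72 starts and orientations with Bur-0 mothers and at 15 of 72 with Col-0 mothers. The first 12 cycles took 60% (48.3 to 70.7%) of the paternal and 47.3% of the maternal matches of the +417 window with Bur-0 mothers. With Col-0 mothers they took 61.8% (45.0 to 76.1%) and 47.9%, and the interval includes the maternal value.

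**Figure D4:**
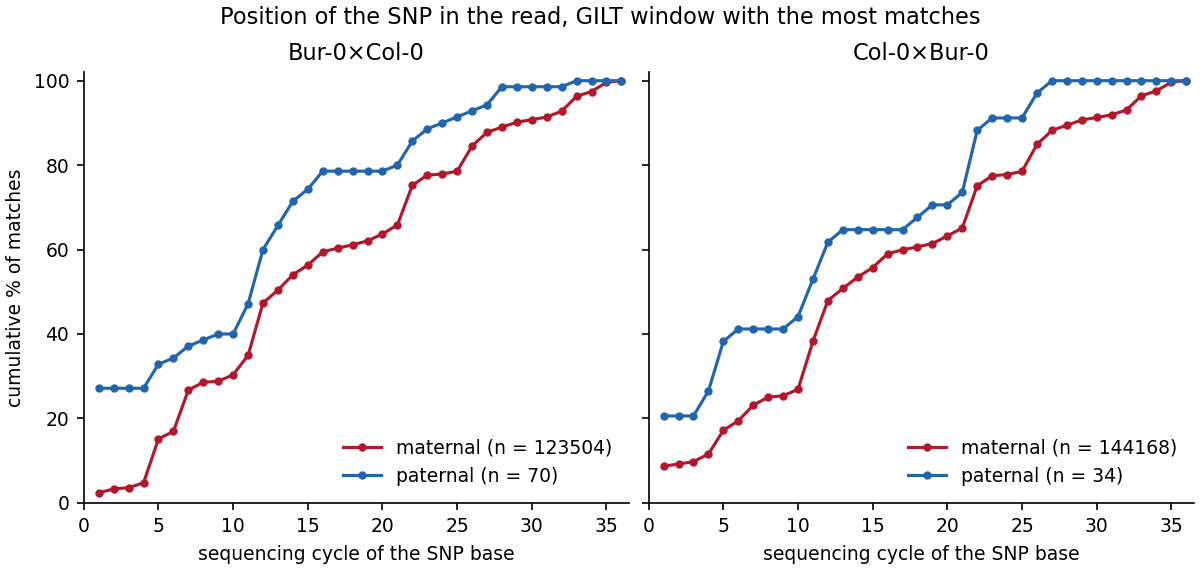
Cumulative percentage of the maternal (red) and paternal (blue) matches of the +417 window by the sequencing cycle at which the SNP base was read, for Bur-0 mothers (left, 123504 and 70 matches) and Col-0 mothers (right, 144168 and 34 matches). The paternal curve starts at 27.1% and 20.6% at cycle 1, above the maternal curve at 2.39% and 8.68%.

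Of 6 listed genes of the GILT family, AT4G12960, AT4G12870 and AT1G07080 could be placed. AT4G12870 lies on the same chromosome (chr4:7542271-7543372), and none of its 4 windows has another SNP within 35 nt. It had 48210 maternal and 16 paternal matches with Bur-0 mothers and 52307 maternal and 395 paternal matches with Col-0 mothers. Its ratio of library shares was 0.723 with all matches and 0.940 over 1 SNP, beside 1.56 and 0.946 for GILT. The matches of AT4G12870 were the same both ways, so only the library totals moved its ratio. Of its 395 paternal matches, 364 lay in 1 window (chr4:7542470-7542540), where the paternal share was 2.29% (2.07 to 2.53%) with Col-0 mothers and 0.0280% with Bur-0 mothers. Its other windows had 6, 0 and 25 paternal matches with Col-0 mothers. AT1G07080 (chr1:2169961-2171880) was far less abundant, with 2684 maternal and 27 paternal matches with Bur-0 mothers and 1662 maternal and 17 paternal matches with Col-0 mothers. Its paternal share of 0.996% (0.685 to 1.45%) and 1.01% (0.633 to 1.62%) was above that of GILT in both crosses, and its ratio of library shares over 1 SNP was 1.23.

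AT4G12890 and AT4G12900 are neighbours of AT4G12870 in the TAIR10.1 gene order, between ENODL19 and scpl20. They were not analysed here as genes, and neither was OSH1 (AT5G01580). The 5 windows between the placed regions of ENODL19 and scpl20 had 344 and 455 matches in all, against 410640 and 208055 in GILT. One of them (chr4 start 7548923) had 79 Bur-0 and 133 Col-0 matches with Bur-0 mothers and 407 Col-0 and 1 Bur-0 match with Col-0 mothers, so that in it the paternal matches exceeded the maternal ones in 1 cross only.

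The 4 other deepest loci among the 1994 placed ones were set beside GILT. A single window outside them (chr3:18278445-18278515) had 151183 matches with Bur-0 mothers, more than all of any of the 4. The loci are BAN, the anthocyanidin reductase gene of proanthocyanidin synthesis, LTP6, LDOX, the leucoanthocyanidin dioxygenase gene, and BGLU18, a beta-glucosidase gene. BAN had 146171 matches with Bur-0 mothers and 95077 with Col-0 mothers, LDOX 142200 and 66771, LTP6 128155 and 92314, and BGLU18 73763 and 62252, against 410640 and 208055 in GILT. The share of matches with Bur-0 mothers that covered another SNP was 35.4% in BAN, 42.8% in LDOX, 28.1% in BGLU18 and 0% in LTP6, against 53.5% in GILT. With matches over 1 SNP only, the ratio of library shares went from 1.21 to 1.02 in BAN, from 1.68 to 1.25 in LDOX, from 0.936 to 0.876 in BGLU18 and from 1.10 to 1.43 in LTP6. Of these, GILT alone crossed 1. The matches of LTP6 were the same both ways, so its ratio moved only with the library totals. These fell from 8576779 to 6516569 with Bur-0 mothers and from 6773239 to 6695434 with Col-0 mothers. That raises the ratio of any locus whose own matches stay the same. Over 851 placed maternal loci with at least 1000 matches in each cross, 100 had a ratio above 1 with all matches and below 1 with matches over 1 SNP only, and GILT was number 80 by the ratio with all matches. The median ratio over the 851 loci was 0.918 with all matches and 0.938 over 1 SNP only, so the 0.946 of GILT lies near the middle. It was 0.970 and 0.914 in the 680 loci with SNPs near each other, to which GILT belongs, and 0.775 and 1.01 in the other 171. By matches over 1 SNP only, GILT still ranked first in both crosses.

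**Figure D5:**
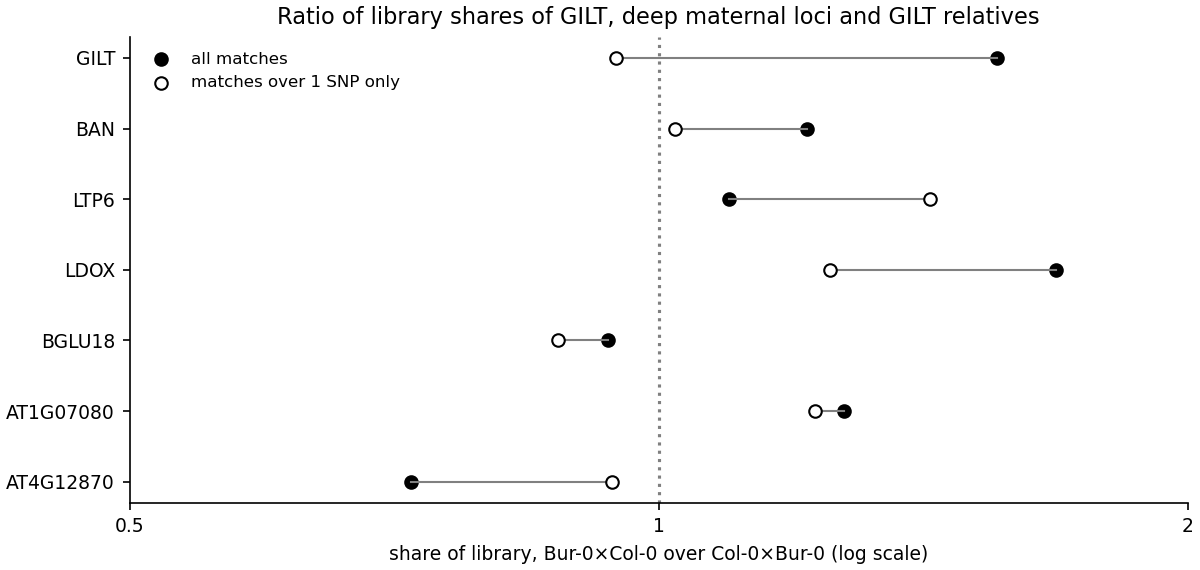
Ratio of the share of the library with Bur-0 mothers to that with Col-0 mothers on a log scale, with all matches (filled) and with matches over 1 SNP only (open), for GILT, the 4 other deepest maternal loci and the placed GILT relatives. The ratio of GILT goes from 1.56 to 0.946. That of LTP6, with no SNP near another and the same matches both ways, goes from 1.10 to 1.43 with the library totals alone.

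The paternal share over 1 SNP was low in all 5 loci with Col-0 mothers, at 0.0376% in GILT, 0.0274% in BAN, 0.0325% in LTP6, 0.0749% in LDOX and 0.0611% in BGLU18. With Bur-0 mothers it was 0.0591% in GILT, 0.0741% in BAN, 0.0750% in LDOX and 0.0509% in BGLU18, whereas LTP6 had 1.47% with 1883 paternal matches. The loci most like GILT were sought among the 851 by the distance over 3 values, all with all matches. These were the logarithms of the ratio of library shares and of the paternal share in each cross. For the paternal shares, 1 was added to the paternal count and to the total. Each value was divided by its SD over the 851 loci. They were AT1G24010 (distance 0.409), AT1G21400 (0.434), LDOX (0.454), 4CL1, a 4-coumarate-CoA ligase gene (0.486), and AT1G14890 (0.615). Apart from LDOX, these had between 1052 and 3413 matches per cross and 0 to 2 paternal ones, so their place rests on few paternal matches. With Bur-0 mothers all of these had 0 paternal matches, so their value there comes from the added 1 and their depth. These values include matches that cannot be compared between the crosses. The same distance over 1 SNP only, computed after seeing the data, gave other loci, which were TT2, a MYB regulator of proanthocyanidin synthesis (0.218), BAN (0.351), AT3G27200 (0.359), BGLU18 (0.431) and TT4, the chalcone synthase gene (0.469). AT1G24010 was then number 9, AT1G14890 number 24, LDOX number 29, 4CL1 number 76 and AT1G21400 number 136. TT2 had 0 paternal matches over 1 SNP in both crosses, so its place rests on the added 1 and its depth. AT3G27200 had 1 in each cross, so its place again rests on few paternal matches.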

How the data were processed

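The authors matched the reads of each lane with vmatch to 71-nt windows around Bur-0 SNPs of TAIR8, with up to 2 mismatches, the whole read matched and matches unique among the windows, and deposited 1 line per match without counts, genes or normalization. The count used here is the number of deposited matches per window, allele and cross, with 4 lanes summed. Reads searched were counted from the headers of the files. A match covered another SNP if its read spanned the centre of a second matched window.

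Shares have 95% Wilson intervals, and a share of 0 the limit of 3 matches. Intervals of ratios used the normal approximation of the log ratio. The binomial test followed the study: one-sided against 2m∶1p per cross, the larger p squared, and q at most 0.05. Fisher's exact test was adjusted over all windows that had 20 matches or more in each cross. Both steps were tried on simulated independent counts with paternal shares far above the total share of GILT. That does not show how they behave on its amplified matches. Loci other than GILT were placed as the run of neighbouring windows whose counts sum to those in the study's lists, so their totals equal the listed ones by construction. The maternal list as read held 1998 loci, fewer than the maternally biased genes the study reports, and 1994 of them were placed. Ranks and medians over placed loci therefore do not cover all maternally biased genes of the study. The ends of 94 placed loci were not unique. Symbols came from TAIR10.1. Named genes were GILT, its 6-gene family, the 4 other deepest maternal loci and the 5 loci nearest to GILT; others were named after their values were seen.

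The gene, the lists and the tests were chosen with earlier results of these data known. Alternatives changed how matches are counted, the windows, lanes and totals used, and the limits of the tests. Matches over 1 SNP (also without the deepest window), windows matched by both accessions and all reads as total were added after seeing the data. The scripts ran under Python 3.11.15 with SciPy 1.17.1, pandas 2.3.3 and NumPy 2.4.6, and figures were drawn with Matplotlib 3.10.9. Sequences of the windows were not used here.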

Additional observations from a re-analysis of the deposited data

How the results depend on the processing

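No paired analysis was possible because each cross has 1 library. In each pair of values here, the first is for seeds of Bur-0 mothers and the second for seeds of Col-0 mothers, and the ratio is that of their shares of the library. With 1 start and orientation counted once per lane, the paternal share of GILT was 4.46% and 22.0%, its share of the library 0.0553% and 0.0578% and the ratio 0.956, and 2574 windows in all had an unequal paternal share. Without the deepest GILT window the paternal share was 0.0150% and 0.673%, the share of the library 3.35% and 0.943% and the ratio 3.55. In windows with no other SNP within 35 nt, the paternal share was 0.0631% and 0.0355%, the share of the library 1.53% and 2.29% and the ratio 0.670, or 2.68%, 3.09% and 0.869 where the library was restricted likewise. Matches over 1 SNP only gave 0.0591% and 0.0376%, 2.93% and 3.10%, a ratio of 0.946 and 1 GILT window with an unequal paternal share. Without the deepest GILT window as well, these were 0.0637% and 0.0693%, 1.04% and 0.948%, and 1.09. In windows matched by both accessions the paternal share was 0.0402% and 0.0746%, 3 GILT windows had an unequal share, and 55.5% of the paternal matches with Col-0 mothers had the SNP in the first 12 cycles, against 38.1% in all GILT windows, which turned the direction against the 44.1% of the maternal matches. The 38.1% includes paternal matches of windows that have no maternal match in that cross. With each read counted once, the share of the library was 4.85% and 3.08% and the ratio 1.57. Over all reads searched it was 0.299% and 0.171% with a ratio of 1.75. These 3 values depend on read totals that differ from those of the study. Without the window outside GILT that was deepest over both crosses together the share was 4.86% and 3.11%. That window lies in LTP6 (chr3:2664313-2664383) and had 119845 and 88341 matches. Bonferroni adjustment left 2434 windows with an unequal paternal share.

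Leaving out 1 lane at a time, the paternal share was 0.0253 to 0.0300% and 0.208 to 0.244%, the share of the library 4.78 to 4.79% and 2.99 to 3.11% and the ratio 1.54 to 1.60. Windows with an unequal paternal share then numbered 4 to 8 in GILT and 2953 to 3209 in all, against 8 and 3883, with the 4 found without lane 4 of Col-0 mothers and lane 1 of Bur-0 mothers. Counts of windows with maternal bias stayed within 1.5 times, at 36868 to 59219 against 47300 in all and at 9 or 10 against 10 in GILT. The ratio of the shares turned its direction with matches over 1 SNP only and with isolated windows in the gene or in both gene and library, and turned back over 1 SNP without the deepest window. With starts counted once it was also under 1, but its interval of 0.889 to 1.03 includes 1, and the deepest window fills all 72 starts and orientations in both crosses, so that this count cannot follow its depth and shows no turn. The cause of the other changes was not tested.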
